A study of Mus musculus with 8 samples.

Results

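Transcripts of 10 chemokine genes (Ccl2, Ccl7, Ccl5, Ccl20, Cxcl1, Cxcl2, Cxcl5, Cxcl10, Cxcl12 and Cx3cl1) were followed in 3T3-L1 cells, a mouse preadipocyte line that turns into fat cells when given adipogenic hormones. The genes were taken as the rows of the count matrix whose Ensembl identifier maps to these symbols, which gave 10 of 49585 genes. Chemokines are small secreted proteins that guide leukocytes by binding G protein-coupled receptors on them. In fibroblasts and preadipocytes most inflammatory chemokine genes are switched on through NF-kB by cytokines or microbial products, while Cxcl10 is best known as an interferon target and Cxcl12 is made constantly by stromal cells. Glucocorticoids are known as general inhibitors of the NF-kB-driven group.

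Flat (2D) cultures were compared with hanging-drop spheroids (3D) of 20000 cells in 28 µL, each kept to day 7 without or with induction, and each of these 4 groups had 2 libraries. Induced cultures of both formats received 250 nM dexamethasone, a synthetic glucocorticoid, and 10 nM triiodothyronine for the first 2 days, and 10 µM troglitazone, a PPARgamma agonist, with 1 µg/ml insulin every day. Uninduced cultures received none of these, and the labels name the same basal medium, with methylcellulose, for all groups. Medium was changed daily in flat cultures and only in part in drops, so culture format and medium exchange cannot be told apart. The libraries were prepared independently according to the series description, but all come from this single line and nothing states that the cultures were separate, so a p-value here covers only the variation among these libraries, which may be technical. They held 11839374 to 21169390 counts. All 7 fibroblast and preadipocyte markers examined (among them Pdgfra, Pdgfrb and Thy1) were detected in every library. In spheroids 2 of the 7 were called lower than in flat culture without induction and 2 with it, where 4.02% and 5.46% of all genes tested were. Each count ran from 1 to 4 with libraries left out singly. All 6 adipocyte markers were called higher with induction in flat culture and 5 of 6 in spheroids, where 3.17% and 0.583% of all genes were. The spheroid count ran from 3 to 6 with libraries left out singly and fell to 0 when only the 4 libraries compared were fitted. With induction, 5 of the 6 adipocyte markers were called lower in spheroids than in flat culture, and 3 to 5 with libraries left out singly. Of 10 leukocyte markers, Ptprc, Adgre1 and Cd3e had 0 counts in all 8 libraries and Itgam had 0 to 2, and 5 endothelial markers summed to 0.0893 to 1.93 CPM (the count scaled to library size). The induced spheroids stood apart in spread: their biological coefficient of variation was 0.327, against 0.0469 to 0.111 in the other groups, and results that rest on them are given with each library left out.

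A gene was called when edgeR's quasi-likelihood test gave a Benjamini-Hochberg adjusted p under 0.05 over the 15255 genes with enough counts and the change was at least 2-fold. Of the 10 chemokine genes 8 were tested, and Ccl20 and Cxcl2 had too few counts. Changes are log2 fold changes ± the model's standard error, from 2 libraries per group. Since this is RNA from whole cultures, fewer cells of a kind and less RNA per cell cannot be told apart. The same 4 groups serve several comparisons, so these share libraries and are not independent of each other.

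The 250 bases before the transcription start are shown for the 4 genes whose levels the results below contrast: Cxcl1, which rose in spheroids; its neighbour Cxcl2, which had few counts; Cxcl10, which varied most between the induced spheroid libraries; and Cxcl12, which fell in spheroids. They are RefSeq promoter sequences in build GRCm38.p6, found for 6 of the 10 genes. Capitals mark matches on either strand to a kappaB-type motif (GGGNNNTNCC, the kind of site NF-kB binds), an ISRE-type motif (GAAANNGAAA, bound by interferon regulatory factors) or an AP-1-type motif (TGANTCA), with overlapping matches joined.
Cxcl1 (chr5:90890995-90891244, plus strand): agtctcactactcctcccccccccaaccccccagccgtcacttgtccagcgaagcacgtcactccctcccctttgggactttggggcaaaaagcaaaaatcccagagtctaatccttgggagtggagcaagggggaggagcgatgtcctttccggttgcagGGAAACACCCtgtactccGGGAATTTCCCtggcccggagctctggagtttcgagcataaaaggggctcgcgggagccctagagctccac
Cxcl2 (chr5:90903649-90903898, plus strand): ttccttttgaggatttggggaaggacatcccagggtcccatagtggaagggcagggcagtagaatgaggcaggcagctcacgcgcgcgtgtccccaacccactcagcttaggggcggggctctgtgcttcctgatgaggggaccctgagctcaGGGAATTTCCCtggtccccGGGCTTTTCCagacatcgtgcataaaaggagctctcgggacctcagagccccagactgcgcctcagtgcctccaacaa
Cxcl10 (chr5:92348890-92349139, minus strand): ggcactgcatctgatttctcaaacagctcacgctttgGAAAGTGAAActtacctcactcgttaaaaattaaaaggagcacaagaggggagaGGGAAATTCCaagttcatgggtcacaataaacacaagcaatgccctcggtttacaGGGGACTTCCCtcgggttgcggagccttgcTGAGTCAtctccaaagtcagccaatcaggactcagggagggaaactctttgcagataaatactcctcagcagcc
Cxcl12 (chr6:117168285-117168534, plus strand): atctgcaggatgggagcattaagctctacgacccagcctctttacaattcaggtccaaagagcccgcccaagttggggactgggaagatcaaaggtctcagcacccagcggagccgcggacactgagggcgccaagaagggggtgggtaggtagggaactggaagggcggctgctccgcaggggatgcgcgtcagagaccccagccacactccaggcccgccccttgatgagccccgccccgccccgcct
Among 32851 promoter windows of 300 bases in the table (250 before and 50 after the start), 17.4% held the kappaB-type motif, 3.44% the ISRE-type and 7.81% the AP-1-type. Cxcl1 had kappaB-type matches from -89 to -80 and, overlapping on opposite strands, from -71 to -61, counted from the start. Cxcl2 had the same 10-base match GGGAATTTCC from -97 to -88, its reverse-strand match GGGAAATTCC a base further on, and another match from -78 to -69. Cxcl10 held kappaB-type matches from -159 to -150 and from -104 to -94, the ISRE-type match from -213 to -204 and the AP-1-type match from -74 to -68, and was alone among these 6 genes in holding the last 2 kinds. Ccl20 held overlapping kappaB-type matches from -81 to -71, and the windows of Cxcl12 and Cx3cl1 held none of the 3 motifs. A match describes letters only. Ccl2, Ccl7, Ccl5 and Cxcl5 have no entry in the table.

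Cxcl12, the stromal ligand of Cxcr4 and Ackr3 that retains haematopoietic and lymphoid cells, was the main chemokine transcript of flat cultures. Per kilobase of exon it stood at 285 ± 0.404 CPM in uninduced flat cultures (mean ± SD, n = 2), ahead of Ccl2 at 44.3 ± 0.357, Ccl7 at 43.6 ± 3.99 and Cxcl5 at 24.8 ± 1.59. Ccl2 and Ccl7 did not differ there beyond their spread. The remaining tested members followed, on the same per-kilobase scale, with Ccl5 at 7.64 ± 0.0412, Cx3cl1 at 6.13 ± 0.0813, Cxcl10 at 3.62 ± 1.72 and Cxcl1 at 2.63 ± 0.536, of which the last 2 overlapped. In uninduced spheroids the order was different: Ccl2 led at 183 ± 1.57 CPM per kilobase, followed by Ccl7 at 150.0 ± 6.51, Cxcl5 at 137 ± 43.9 and Cxcl12 at 113 ± 2.06, and Cxcl5 overlapped both Ccl7 and Cxcl12. Cxcl1 followed at 38.8 ± 11.3 CPM per kilobase, and Cx3cl1, Cxcl10 and Ccl5 lay between 5.06 and 8.04, the first 2 within each other's spread. Induced flat cultures kept Cxcl12 first at 238 ± 4.48, with Ccl7 at 23.2 ± 0.0262, Ccl2 at 10.5 ± 1.84 and Cxcl5 at 7.09 ± 0.204 next, and the other 4 tested members lay between 0.413 (Cxcl10) and 3.10 (Cx3cl1). In induced spheroids Ccl2 at 111 ± 77.9, Ccl7 at 109 ± 64.5 and Cxcl12 at 83.3 ± 41.9 overlapped, as did Cxcl5 at 35.3 ± 7.53 and Cxcl1 at 34.6 ± 28.2. Of the 10 genes' summed CPM per kilobase, Cxcl12 made up 67.7% and 68.6% in the uninduced and 83.0% and 83.7% in the induced flat libraries, against 18.3% and 16.9% in the uninduced and 37.4% and 11.3% in the induced spheroids. The shares depend on exon lengths from GENCODE vM21, which may not be the annotation used for counting.

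**Figure D1:**
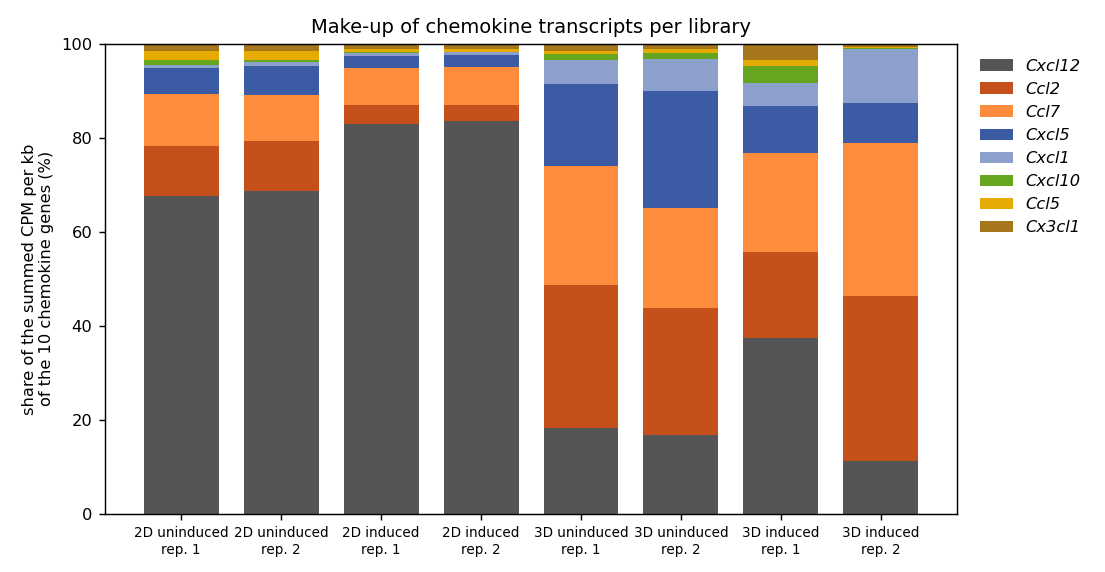
Stacked bars give each chemokine gene's share, in percent, of the summed CPM per kilobase of the 10 genes, for each of the 8 libraries; Ccl20 and Cxcl2 are in the sum but too small to see. Cxcl12 takes 67.7 to 83.7% of the flat-culture bars and 11.3 to 37.4% of the spheroid bars, where Ccl2, Ccl7 and Cxcl5 take most of the rest.

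Ccl2 and Ccl7, the ligands of Ccr2 that draw monocytes, lie next to each other on chromosome 11 of GRCm38/mm10 (Ccl2, ENSMUSG00000035385, 82035571 to 82037453; Ccl7, ENSMUSG00000035373, 82045712 to 82047525), with 8258 bases and no coding gene between them. Ccl2 measured 50.7 and 50.2 CPM in uninduced flat cultures, 13.4 and 10.4 in induced flat cultures, 209.9 and 207 in uninduced spheroids and 63.4 and 189 in induced spheroids. Every spheroid library lay above every flat library, and the induced flat libraries were the lowest. The fitted difference between spheroids and flat cultures was 2.05 ± 0.43 without induction (adjusted p = 0.0149) and 3.41 ± 0.47 with it (adjusted p = 0.00253), and induction lowered Ccl2 in flat culture by a log2 of -2.09 ± 0.45 (adjusted p = 0.0304). Ccl7 measured 37.2 and 32.7, 18.6 and 18.5, 124 and 116, and 50.9 and 124 CPM in the same order of groups. As for Ccl2, all 4 spheroid libraries lay above all 4 flat ones. Ccl7 was higher in spheroids by 1.78 ± 0.35 without induction (adjusted p = 0.0124) and by 2.24 ± 0.36 with it (adjusted p = 0.00457), while its change with induction in flat culture, -0.91 ± 0.36, was not called (adjusted p = 0.173). Ccl5, a CC ligand further along this chromosome (ENSMUSG00000035042, 83525778 to 83530518), attracts T cells and eosinophils. It measured 7.36 and 7.31 CPM in uninduced and 2.05 and 1.40 in induced flat cultures, 4.64 and 5.08 in uninduced spheroids, and 3.79 and 0.526 in induced spheroids. The flat groups did not overlap, but the change with induction, -2.10 ± 0.68, did not pass the test (adjusted p = 0.110), and neither difference between formats did, at -0.59 ± 0.62 (adjusted p = 0.535) and 0.31 ± 0.72 (adjusted p = 0.782). With induction the latter was called in opposite directions when either induced spheroid library was left out, at -1.67 without replicate 1 (adjusted p = 0.00930) and 1.15 without replicate 2 (adjusted p = 0.00976).

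Cxcl1, Cxcl2 and Cxcl5 signal through Cxcr2 and draw neutrophils, and all lie in a cluster on chromosome 5. Cxcl5 (ENSMUSG00000029371, 90759360 to 90761624) measured 44.2 and 48.4 CPM in uninduced flat cultures, 13.5 and 12.9 in induced flat cultures, 198 and 314 in uninduced spheroids and 55.8 and 75.7 in induced spheroids. No group overlapped another, and Cxcl5 was the only member called in all 4 pairwise comparisons. It rose in spheroids by 2.47 ± 0.24 without induction (adjusted p = 0.00103) and by 2.32 ± 0.25 with it (adjusted p = 0.00108). Induction lowered it in flat culture by a log2 of -1.81 ± 0.25 (adjusted p = 0.00455) and in spheroids by -1.96 ± 0.23 (adjusted p = 0.0126). Cxcl1 (ENSMUSG00000029380, 90891241 to 90893115) lies 129616 bases further on, past Ppbp, Pf4, Cxcl3 and Cxcl15. It measured 4.23 and 5.65 CPM, then 3.04 and 3.22, in uninduced and induced flat cultures, 57.7 and 87.7 in uninduced spheroids, and 27.5 and 102 in induced spheroids. The lowest spheroid library thus exceeded the highest flat library. Its rise in spheroids, 3.89 ± 0.60 without induction (adjusted p = 0.00475) and 4.37 ± 0.64 with it (adjusted p = 0.00307), was the largest among the 8 members in both comparisons. Induction changed it by -0.64 ± 0.67 in flat culture and -0.16 ± 0.51 in spheroids, neither called (adjusted p = 0.620 and 0.949). Cxcl2 (ENSMUSG00000058427, 90903871 to 90905938) is the next coding gene, 10755 bases from Cxcl1. It had 0 counts in 6 libraries, 1 in an uninduced spheroid library and 17 in induced spheroid replicate 2, which is 1.04 CPM of the unscaled total (exact Poisson 95.0% interval 0.604 to 1.66, counting error only). In the 6 libraries without a count, the limit of 3 counts that a count of 0 allows was 0.142 to 0.253 CPM. Of the 50-base windows of Cxcl2 transcripts, 5.84% also occur in Cxcl3. Ccl20, the ligand of Ccr6, on chromosome 1 (ENSMUSG00000026166, 83116766 to 83119167), had 10 and 1 counts in uninduced flat cultures, 0 in both induced flat libraries, 4 and 1 in uninduced spheroids and 1 and 0 in induced spheroids.

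**Figure D2:**
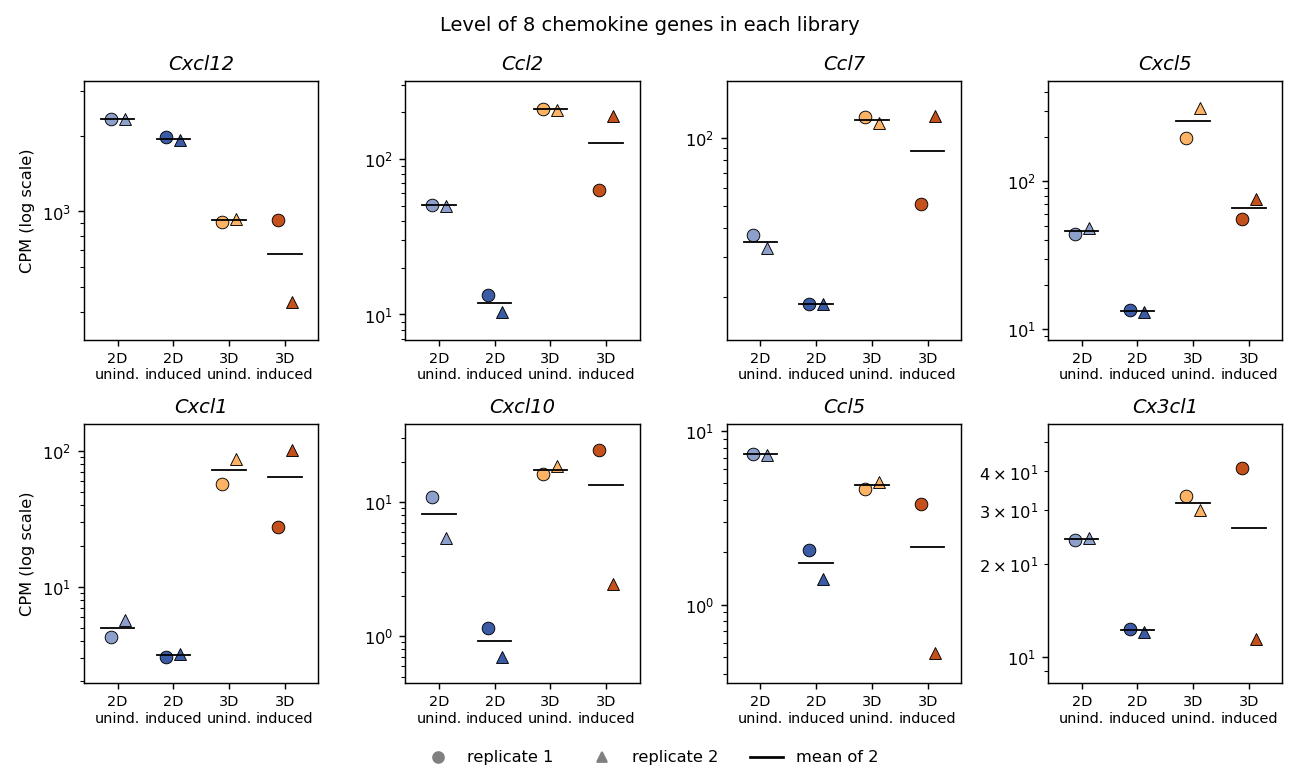
Each panel plots 1 tested chemokine gene, with its level in CPM on a log axis against the 4 groups; points are libraries (circle, replicate 1; triangle, replicate 2) and bars are means of 2. Ccl2, Ccl7, Cxcl1 and Cxcl5 lie higher in every spheroid library than in any flat library, Cxcl12 lies lower in every spheroid library, and the widest gaps between replicates are those of the induced spheroids, such as 24.6 against 2.45 CPM for Cxcl10.

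Cxcl10, the Cxcr3 ligand that draws activated T cells (ENSMUSG00000034855, chromosome 5, 92346638 to 92348889), measured 10.9 and 5.42 CPM in uninduced and 1.16 and 0.700 in induced flat cultures, 16.1 and 18.7 in uninduced spheroids, and 24.6 and 2.45 in induced spheroids. The flat groups did not overlap, whereas the induced spheroid libraries lay on either side of the uninduced ones. Only the difference between induced spheroids and induced flat cultures was called, at 3.87 ± 1.06 (adjusted p = 0.0307). Induction in flat culture gave -3.17 ± 1.07 (adjusted p = 0.120), and spheroids without induction differed by 1.08 ± 0.83 (adjusted p = 0.391). Cxcl10 shares 133 exon bases with Art3 on the other strand, and Art3 had only 3 to 14 counts per library. Cx3cl1, a membrane-bound ligand of Cx3cr1 that the proteases Adam10 and Adam17 release (ENSMUSG00000031778, chromosome 8, 94772009 to 94782427), measured 23.9 and 24.3 CPM in uninduced and 12.3 and 12.0 in induced flat cultures, 33.3 and 29.9 in uninduced spheroids, and 41.1 and 11.4 in induced spheroids. None of its comparisons was called by edgeR with all libraries. The nearest was induced spheroids against induced flat cultures at 1.10 ± 0.49 (adjusted p = 0.126), where the groups overlapped. DESeq2 called that comparison (1.10, adjusted p = 0.0485), and so did edgeR without induced spheroid replicate 2 (1.76, adjusted p = 1.33e-07), while the value without replicate 1 was -0.094. Without replicate 1 its induction in spheroids was called lower instead (-1.47, adjusted p = 7.17e-06). Cxcl12 (ENSMUSG00000061353, chromosome 6, 117168535 to 117181367) moved the other way from Ccl2: 2330.1 and 2325 CPM in uninduced and 1973 and 1921 in induced flat cultures, 911 and 935 in uninduced spheroids, and 923 and 439 in induced spheroids. All spheroid libraries lay below all flat ones. The fall in spheroids was -1.33 ± 0.30 without induction (adjusted p = 0.0188) and -1.52 ± 0.30 with it (adjusted p = 0.00921), and induction gave -0.26 ± 0.29 in flat culture (adjusted p = 0.651).

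Over the members, spheroids without induction had 4 of 8 tested genes called higher (Cxcl1, Cxcl5, Ccl2 and Ccl7) and 1 called lower (Cxcl12), where 5.42% of all genes tested were called higher and 4.02% lower. With induction 5 were called higher (the same 4 and Cxcl10) and again Cxcl12 lower, where 6.94% of all genes were called higher and 5.46% lower. The members' median log2 difference was 1.43 without and 2.28 with induction, against 0.03 over all genes tested in each case. Cxcl5 was called in all 14 alternative settings of both comparisons, and Cxcl1 and Ccl2 in all 14 with induction. Without induction, leaving out any 1 of the 4 libraries compared ended the calls of Ccl2 (adjusted p = 0.0734 to 0.113), Ccl7 (0.0624 to 0.103) and Cxcl12 (0.0952 to 0.128), with log2 differences of 2.03 to 2.06, 1.68 to 1.86 and -1.35 to -1.32 over all settings, and leaving out flat uninduced replicate 1 ended that of Cxcl1 (0.0634). With induction, leaving out induced spheroid replicate 1 or replicate 2 gave 4.00 or 2.43 for Ccl2, 5.02 or 3.13 for Cxcl1, 2.74 or 1.46 for Ccl7, 2.52 or 2.08 for Cxcl5 and -2.15 or -1.08 for Cxcl12, all called. The call of Cxcl10 held in 6 of 14 settings, and its difference was 1.43 without replicate 1, where it was not called, and 4.75 without replicate 2. Ccl7 was not called without flat induced replicate 2 (adjusted p = 0.0507), nor Cxcl12 without either flat induced library (0.0571 and 0.0591). The leukocyte markers were mixed. The summed level of the 10 leukocyte markers was 19.6 to 28.6 CPM in flat libraries and 30.6 to 70.7 in spheroid libraries. Cd14 made up much of it, with 43.5 and 47.1 CPM in the uninduced spheroid libraries. Of the 5 tested, 2 were called higher and 1 lower (Lyz2) in each comparison, and Csf1r was called in neither. Those called higher were Cd14 and S100a8 without induction, and Cd14 and Cd68 with it. S100a8 was called in 14 of 14 settings and Cd68 in 12 of 14. With libraries left out singly, those called higher numbered 2 to 3 without and 0 to 3 with induction, and those called lower 0 to 1 in each. Ptprc was at 0 counts in every library. Which cells these transcripts came from was not tested.

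**Figure D3:**
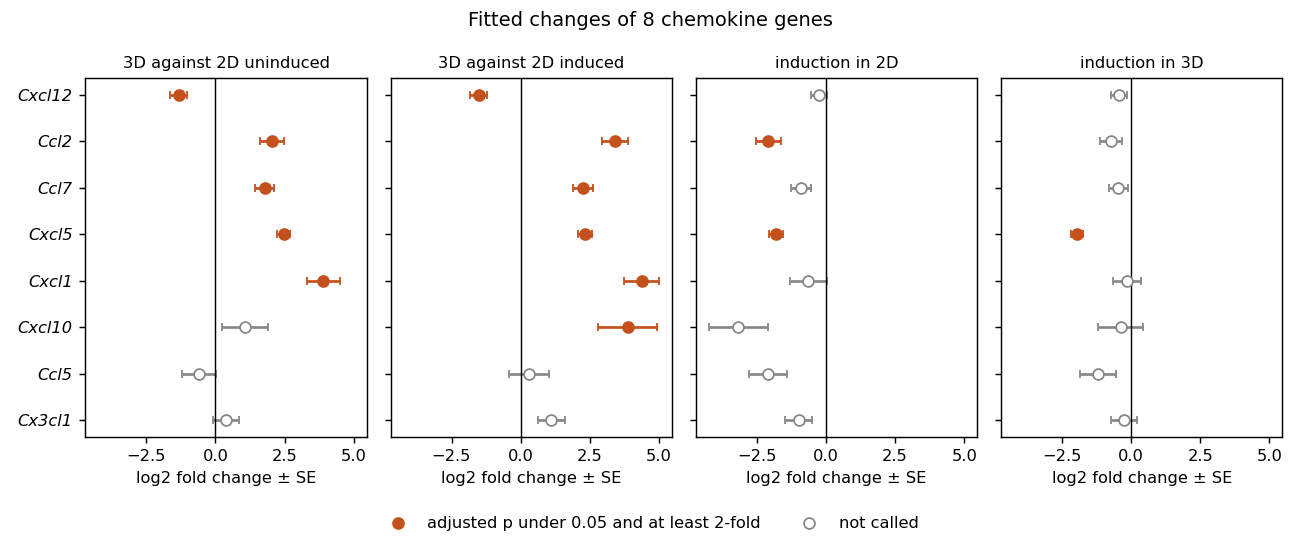
Points give the fitted log2 fold change of the 8 tested chemokine genes in 4 comparisons, with bars of 1 standard error; filled points are called. Cxcl1, Cxcl5, Ccl2 and Ccl7 lie to the right of 0 in both comparisons of spheroids with flat cultures and Cxcl12 to the left, and Cxcl5 is the only filled point under induction in 3D.

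Induction lowered 2 members in flat culture, Cxcl5 and Ccl2, and 1 in spheroids, Cxcl5, and raised none in either. Over all genes tested, 3.17% were called higher and 1.34% lower with induction in flat culture, and 0.583% higher and 0.328% lower with induction in spheroids. All 8 tested members had negative log2 changes in both formats, with medians of -1.40 in flat culture and -0.45 in spheroids, against 0 and 0.04 over all genes. No member rose with induction at edgeR's unadjusted p under 0.05 (0 of 8 in either format), nor by DESeq2 (0) or limma-voom (0). Falls in flat culture numbered 5 at an unadjusted p, 4 by DESeq2 and 4 by limma-voom, and in spheroids 1, 1 and 0. No share over all genes is at hand for these settings, so the counts describe the members only. The call of Ccl2 in flat culture ended without any 1 flat library or either uninduced spheroid library (adjusted p = 0.0745 to 0.221), and that of Cxcl5 without either flat induced library (0.0586 and 0.0646). Cxcl10 and Ccl5 were called lower in flat culture without either induced spheroid library, which enter only the shared estimate of spread (adjusted p = 2.24e-04 and 6.29e-04 for Cxcl10, 2.00e-05 and 2.58e-05 for Ccl5). In spheroids the fall of Cxcl5 was not called without either flat induced library or without uninduced spheroid replicate 2 (adjusted p = 0.0535 to 0.0615), at log2 changes of -2.25 to -1.59 over all settings. The other 7 members changed with induction in spheroids by -1.20 (Ccl5) to -0.16 (Cxcl1), with adjusted p from 0.545 to 0.949.

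The difference between the inductions in spheroids and in flat culture, tested as an interaction, was called for none of the 8 members, with 0 at an unadjusted p under 0.05, 0 by DESeq2 and 0 by limma-voom. Over all genes 0.0393% were called higher and 0.341% lower. Ccl2, at 1.36 ± 0.60 (unadjusted p = 0.0553, adjusted p = 0.656), and Cxcl10, at 2.80 ± 1.35 (0.0743 and 0.695), had the smallest p. Without induced spheroid replicate 1 Ccl2 was called at 1.95, and without replicate 2 Cx3cl1, Cxcl10 and Ccl5 were called at 1.36, 3.70 and 1.75.

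The 2 induced spheroid libraries split the chemokine genes. Replicate 2 held more Ccl2 (2.98 times replicate 1), Ccl7 (2.44 times), Cxcl1 (3.71 times) and Cxcl5 (1.36 times), and all 17 of that group's Cxcl2 counts. Replicate 1 held more Cxcl10 (10.0 times replicate 2), Ccl5 (7.20 times), Cx3cl1 (3.61 times) and Cxcl12 (2.11 times). In log2 CPM the differences, replicate 2 minus replicate 1, ran from 1.89 for Cxcl1 to -3.26 for Cxcl10, and 3 members were at least 2-fold higher and 4 at least 2-fold lower. Over all 15255 genes 4.46% were at least 2-fold higher in replicate 2 and 9.69% at least 2-fold lower, and with 1 library on each side there is no test. Between the uninduced spheroid libraries the widest gaps of any tested member were 314 against 198 CPM for Cxcl5 and 87.7 against 57.7 CPM for Cxcl1. Of 11 genes on the interferon side (sensors, transcription factors, and targets such as Ifit3 and Isg15), all 11 were lower in replicate 2, 8 of them at least 2-fold, with a median of -1.62. Ifit3 measured 118 CPM in replicate 1 and 12.2 in replicate 2. The 14 NF-kB subunits and feedback targets lay between -0.76 and 0.76, 7 higher and 7 lower, with a median of -0.10, against -0.01 over all genes. Other measures differed between the same 2 libraries: the 7 fibroblast and preadipocyte markers summed to 16219 and 5786 CPM in replicates 1 and 2, and 2 RNAs that overlap ribosomal RNA, Gm26917 and Gm42418, took 0.106% and 1.13% of the counts. Most of the marker sum was Col1a2 (8158 and 2194 CPM) and Col1a1 (4575 and 1182 CPM). All 7 markers were lower in replicate 2, 3 of them at least 2-fold, with a median of -0.64. The part of these measures in the chemokine differences was not tested.

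**Figure D4:**
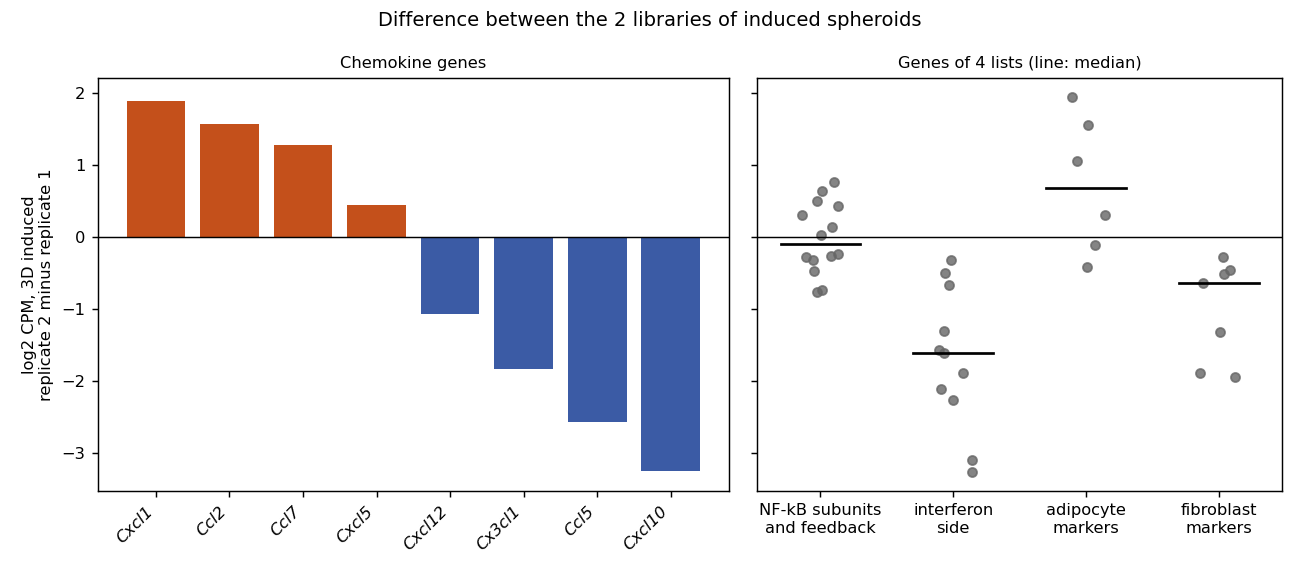
The left panel plots, for 8 chemokine genes, log2 CPM of induced spheroid replicate 2 minus replicate 1; the right panel plots the same difference for the genes of 4 lists, with a line at each median. Ccl2, Ccl7, Cxcl1 and Cxcl5 lie above 0 and the other 4 below, down to -3.26 for Cxcl10, and all 11 interferon-side genes lie below 0 while the NF-kB genes lie between -0.76 and 0.76.

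With these libraries left out in turn, induction in spheroids gave different members. Without replicate 1, Cxcl10 (-2.82), Ccl5 (-3.19), Cx3cl1 (-1.47) and Cxcl12 (-1.07) were called lower beside Cxcl5 (adjusted p = 8.06e-07 to 6.30e-04 for these 4). Without replicate 2, Ccl2 (-1.72), Ccl7 (-1.24) and Cxcl1 (-1.40) were called lower beside Cxcl5 (adjusted p = 1.48e-07 to 0.0108 for these 3). Each such fit leaves a lone induced spheroid library, which is assumed to vary like the other groups.

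Among the 14 NF-kB genes, of which several are targets that feed back on the pathway, 4 were called higher and 0 lower in spheroids without induction, and 3 higher and 0 lower with it, where 5.42% and 6.94% of all genes were called higher; the list's median differences were 0.45 and 0.72, against 0.03 over all genes. The called genes without induction were Nfkbiz, which encodes a nuclear co-activator of secondary NF-kB targets, Zc3h12a, which encodes the RNase Regnase-1, Traf1 and Nfkbia. Nfkbiz measured 7.21 to 11.3 CPM in the 4 flat libraries and 51.8 to 80.4 in the 4 spheroid libraries, and its difference was 2.95 ± 0.24 without (adjusted p = 5.81e-04) and 2.70 ± 0.24 with induction (adjusted p = 6.55e-04). Zc3h12a measured 10.6 to 17.4 and 44.8 to 66.1 CPM, with differences of 2.20 ± 0.19 (adjusted p = 6.77e-04) and 1.89 ± 0.19 (adjusted p = 9.40e-04). Both were called in all 14 settings of both comparisons, Traf1 in 12 of 14 in each, and Nfkbia in 7 of 14. Traf1 had 2 to 11 counts in flat libraries and 30 to 72 in spheroid libraries. It had enough counts to be tested only because of the spheroid libraries. With libraries left out singly, each of the counts of 4 and 3 ran from 2 to 4. With induction 0 of the 14 were called higher in either format, and 1, Nfkbie, was called lower in flat culture (-1.09 ± 0.25, adjusted p = 0.0371), which was called in 8 of 14 settings. Over all genes, induction had 3.17% called higher and 1.34% lower in flat culture, and 0.583% higher and 0.328% lower in spheroids. Of 13 genes for cytokines and receptors linked to chemokine induction, 11 were tested. In spheroids 3 were called higher without induction (Il6, Il1rn and Il1a) and 1 with it (Il6), with 0 lower. These counts ran from 1 to 3 and from 0 to 2 with libraries left out singly. Il1rn encodes an antagonist of the interleukin-1 receptor rather than an inducer. Il1rn was called in 9 of 14 settings, and Il1a in 7 of 14. Il1a had 0 to 6 counts in flat libraries, 13 and 37 in uninduced spheroids and 8 and 10 in induced spheroids. Il1a and Il6 had enough counts to be tested only because of spheroid libraries, so their place among the tested genes already favours a spheroid rise. Il6 had 1 to 7 counts in flat libraries and 19 to 62 in spheroid libraries, and was higher by 3.44 ± 0.47 (adjusted p = 0.00309) and 3.41 ± 0.61 (adjusted p = 0.00639), though the second was not called without either flat induced library. Tnf had at most 1 count and Il1b at most 3 in any library.

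Of the 11 interferon-side genes, 0 were called higher and 3 lower in spheroids without induction (Irf9, Irf7 and Isg15), where 4.02% of all genes were called lower, with a median difference of -1.14, and 0 were called in either direction with induction, with a median of -0.03. Induction in flat culture lowered 1 of them, Irf9, by a log2 of -1.11 ± 0.22 (adjusted p = 0.0221), where 1.34% of all genes were called lower, with a list median of -1.02. The count of 3 ran from 0 to 6 when libraries were left out singly, and that of 1 also from 0 to 6. Cxcl10 measured, in uninduced spheroids, 16.1 and 18.7 CPM against 10.9 and 5.42 in flat cultures.

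Of 28 other chemokine ligands 11 had enough counts to be tested. Without induction 3 were called higher in spheroids (Ccl8, Cxcl16 and Ccl25) and 2 lower (Ccl6 and Ccl9), with induction 1 higher (Ppbp) and 2 lower (Ccl6 and Ccl9), and induction lowered 1 in spheroids (Cxcl16) and 0 in flat culture. Over all genes, 5.42% were called higher and 4.02% lower without induction, 6.94% and 5.46% with it, and 0.328% lower with induction in spheroids. Of these only Ccl6 without induction was called in all 14 settings. Ppbp, with 4 and 2 counts in the induced flat libraries, was called in 2 of 14, Ccl25 in 3, and the fall of Cxcl16 with induction in spheroids in 5. With libraries left out singly, 0 to 3 were called higher and 1 to 3 lower in spheroids, both without and with induction. Those lowered by induction in spheroids then numbered 0 to 2. Ccl8, a CC ligand encoded in the same cluster as Ccl2, measured 15.8 and 13.9 CPM in uninduced flat cultures and 56.9 and 28.3 in uninduced spheroids (1.52 ± 0.35, adjusted p = 0.0216), was called in 8 of 14 settings and was named after its values were seen. Ccl6 had 25 to 34 counts in the flat libraries and 1 to 3 in the spheroid libraries (adjusted p = 0.00225 without and 0.00187 with induction). It had enough counts to be tested only because of the flat libraries. Cxcl3, a relative of Cxcl2 in the same cluster, had 0 to 3 counts. Of 18 chemokine receptor genes, without the atypical ones, most were nearly absent. Only 3 had enough counts to be tested, Cxcr4 and Cxcr3 had 0 counts in all libraries, and Cxcr2 and Ccr2 had at most 2. Ccr1, a receptor of Ccl5 and Ccl7, had 0, 0, 1 and 0 counts in the flat libraries and 39, 24, 9 and 47 in the spheroid libraries, and was called higher in both comparisons (adjusted p = 0.0147 and 0.0270), though the first call ended without any 1 of the 4 uninduced libraries (highest adjusted p = 0.0971) and the second without either flat induced or either uninduced spheroid library (highest adjusted p = 0.158). Ccr1 had enough counts to be tested only because of the spheroid libraries. Of 5 atypical receptors, which bind chemokines without drawing cells, 2 were tested. Ackr3, which takes up Cxcl12, measured 20.5 to 24.6 CPM in flat libraries and 3.86 to 9.43 in spheroids, lower by a log2 of -1.62 ± 0.32 without (adjusted p = 0.0127) and -1.92 ± 0.33 with induction (adjusted p = 0.00558). The first call ended without any 1 of the 4 libraries compared (highest adjusted p = 0.0962).

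The genes whose profiles over the 8 libraries were most like those of 3 members were found by the root mean square distance between log2 CPM profiles centred on their means, among 11083 genes. For Ccl2 these were Faim2 (0.325), Olfm1 (0.423) and Id4 (0.516), and among the members Cxcl5 (0.520) and Ccl7 (0.565) were nearest. For Cxcl5 they were Olfm1 (0.246), Fgd3 (0.439) and Serpina3g (0.518). For Cxcl12 they were Rcn3 (0.0603), Psmb9 (0.126) and Fam114a1 (0.138). The profiles were not scaled, so distances also depend on how much a gene varies and cannot be compared between the 3 members. Rcn3, which encodes a calcium-binding protein of the endoplasmic reticulum, measured 764 and 802 CPM in uninduced and 674 and 678 in induced flat cultures, 329 and 338 in uninduced spheroids, and 294 and 151 in induced spheroids.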

How the data were processed

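RNA sequencing counts of 8 libraries were analysed. The deposited table holds raw read counts per Ensembl gene, and the authors made it, per the submitters' processing notes, with featureCounts 1.6.3, HISAT2 2.1.0, Trimmomatic 0.38 and FastQC 0.11.7 on build mm10; the strand mode of counting is not given in the sources used here, nor are the annotation release and settings. Sample descriptions name each column, and replicate numbers are those of the titles. Symbols and exon lengths came from GENCODE vM21, which gave 49326 of 49585 genes a symbol.

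From these counts, edgeR 4.0.16 in R 4.3.3 kept 15255 genes (filterByExpr, minimum count 10) and fitted 1 mean per group over all 8 libraries by robust quasi-likelihood (TMM scaling, 4 residual degrees of freedom, two-sided tests, Benjamini-Hochberg adjustment). Standard errors were derived from the fold change and its F statistic. CPM use TMM-scaled totals, and log2 CPM used a prior count of 2. The script was tested on simulated counts. The 14 alternatives were DESeq2 1.42.0, RLE factors, no low-count filter, a replicate block, the 4 libraries compared alone, limma-voom (limma 3.58.1) with group weights, and each library left out.

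The members, the 12 other gene lists and the tests were chosen with earlier results of these data known. Besides the members, the naming rule took, in each list and comparison, up to 4 called genes with the smallest adjusted p and up to 2 uncalled genes with the highest CPM; Tnf, Il1b, Cxcl3 and other genes named for counts near 0, Gm26917 and Gm42418 were named after their values were seen.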

Additional observations from a re-analysis of the deposited data

How the results depend on the processing

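Of 552 alternative values of single members, 467 kept their direction and side of the threshold, 27 gained a call, 42 lost it and 16 changed sign. The number of members called with induction in 2D (2) became 4 with DESeq2, 4 with only the 4 libraries compared, 4 with limma-voom group weights, 1 with no low-count filter, and 0 to 4 with single libraries left out. With induction in 3D (1) it became 0 with only the 4 libraries compared, 0 with limma-voom group weights, and 0 to 5 with libraries left out. For 3D against 2D uninduced (5) it became 3 with no low-count filter, 6 with only the 4 libraries compared (Cxcl10 gained) and 1 to 6 with libraries left out, for 3D against 2D induced (6) 3 with only the 4 libraries compared, 7 with DESeq2 (Cx3cl1 gained), 5 with limma-voom group weights, 5 with no low-count filter (Cxcl10 lost in both) and 3 to 8 with libraries left out, and for the interaction (0) 0 to 3. Signs changed only when a library was left out, except for Ccl5 in 3D against 2D induced, which was also -0.31 with limma-voom group weights. With libraries left out, induction in 3D ran from -1.40 to 0.49 for Cxcl1, -1.47 to 0.38 for Cx3cl1, -2.82 to 0.50 for Cxcl10, -1.24 to 0.046 for Ccl7 and -1.07 to 0.000116 for Cxcl12. The difference of 3D from 2D induced ran from -0.094 to 1.76 for Cx3cl1 and -1.67 to 1.15 for Ccl5. The interaction ran from -0.45 to 0.22 for Cxcl5, -0.78 to 1.11 for Cxcl1, -0.49 to 1.36 for Cx3cl1, -1.08 to 1.75 for Ccl5, -0.32 to 0.97 for Ccl7 and -0.82 to 0.26 for Cxcl12. Leaving out a library removes 1 of few residual degrees of freedom; otherwise the cause was not tested.

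With a replicate block the numbers of members called stayed at 2, 1, 5, 6 and 0. Same-numbered libraries deviated together weakly (r = -0.00619 to 0.206 across genes), so the numbers were not taken to pair them. The block and this check followed the numbers in the titles. For uninduced flat cultures the count matrix numbers its columns otherwise, so a pairing by column number was not tested there. TMM and RLE scaling moved the median gene by under 0.1 log2. Depth limited Ccl20 and Cxcl2, which were not tested.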

Other observations

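Of 6 genes that respond to glucocorticoids or brake inflammatory signalling, 2 were called higher with induction in flat culture and 2 in spheroids. Over all genes tested 3.17% and 0.583% were. In each case they were Fkbp5, which encodes a chaperone of the glucocorticoid receptor, and Tsc22d3, which encodes the glucocorticoid-induced leucine zipper. Tsc22d3 measured 69.7 and 70.2 CPM in uninduced and 186 and 193 in induced flat cultures, and 21.6 and 24.0 in uninduced and 68.3 and 70.8 in induced spheroids. Induced spheroids thus held about the level of uninduced flat cultures. In edgeR's quasi-likelihood test it rose with induction by 1.44 ± 0.10 in flat culture (adjusted p = 2.27e-04) and by 1.61 ± 0.10 in spheroids (adjusted p = 9.79e-04), and it was lower in spheroids by -1.62 ± 0.10 without and -1.45 ± 0.10 with induction (adjusted p = 1.97e-04 and 2.59e-04). With only the 4 libraries compared, neither spheroid rise was called, at an adjusted p of 0.151 for Tsc22d3 and 0.182 for Fkbp5. Zfp36 was called higher in induced spheroids (35.1 and 77.0 CPM) than in induced flat cultures (21.6 and 22.8 CPM), and held in 10 of 14 settings. Dusp1, a phosphatase gene that dampens MAP kinases, was called higher in spheroids without (1.62 ± 0.40, adjusted p = 0.0259) and with induction (2.34 ± 0.41, adjusted p = 0.00607); the first call ended without any 1 uninduced or flat induced library and the second without either flat induced library (highest adjusted p over all settings 0.172 and 0.0600).

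Of 7 genes for proteases that cleave and proteoglycans that present chemokines, 6 were tested. Sdc2 was called lower with induction in flat culture (-1.22 ± 0.19, adjusted p = 0.00762), from 349 and 341 to 142 and 154 CPM, and the call ended without any 1 of the 4 flat libraries (highest adjusted p = 0.0905). Sdc3 was called higher in uninduced spheroids than in uninduced flat cultures (1.06 ± 0.16, adjusted p = 0.00401) and lower with induction in spheroids (-1.03 ± 0.16, adjusted p = 0.0268). The first held in 12 of 14 settings, and the second in 6 of 14, with log2 changes of -1.27 to -0.83 over all 14 (highest adjusted p = 0.358). Adam10, which releases Cx3cl1 from the membrane, was called in none of the 5 comparisons, with log2 differences of -0.20 to 0.16.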
